A study of Homo sapiens with 10 samples.

Results

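The genes of the end of the long arm of human chromosome 4, from GALNTL6 to the chromosome end (bands 4q34 to q35), were followed in GIST-T1 cells, an established line from a metastatic gastrointestinal stromal tumour (GIST). The 41 genes were a list of symbols chosen by position and by the size and evenness of their change against the control line, out of 58381 gene rows in the deposited tables. Those changes, calls against control included, are therefore a description. Differences between the derivative lines, which leave out the control mean, were tested. The control libraries still entered the shared fit, and evenness across lines was part of the choice of genes. These tests are therefore not fully independent of that choice either. All 41 matched chromosome 4 in the GENCODE annotation (hg38), where GALNTL6 starts at position 171812254, and the stretch to the end of the last listed gene measures 18.15 Mb. It holds 246 annotated genes, of which 105 had any count.

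RNA was sequenced from 4 derivative lines with genotypes given as InsE, InsF, InsG and InsH and from a control line with genotype WT, with 2 libraries per group. The series describes the derivatives as GIST-T1 lines with a disrupted CTCF insulator, in cells with intact succinate dehydrogenase (SDH). The labels give neither the edited site of a line nor whether it is a single clone. They also do not say if the 2 libraries of each group stem from separate cultures, and p-values here cover the spread between libraries, possibly technical alone. In RNA from bulk cells, fewer cells expressing a gene and less of its RNA per cell cannot be told apart. Library totals were 22.9 to 42.5 M (mega) expected counts in replicate 1 and 9.4 to 20.1 M in replicate 2. All 9 listed GIST markers were tested, with control means of 720 TPM for KIT, 514 TPM for ANO1 and 1710 TPM for CD34, and 7 of the 9 were lower in InsE (12.4% of all genes were), 5 in InsF (11.3%), 5 in InsG (10.5%), 5 in InsH (9.46%), while 1 was higher in InsG and 1 in InsH (edgeR adjusted p under 0.05). In the mean of the lines the largest called changes were -0.80 ± 0.04 for KIT, -0.77 ± 0.05 for ANO1, -0.47 ± 0.07 for PRKCQ and -0.44 ± 0.07 for FOXF1. Of 12 markers of other cell types, 8 had too few counts to be tested, among them PTPRC of blood cells and PECAM1 of endothelium, and none of the other 4 reached 2 TPM in any library. FGF3, a fibroblast growth factor gene on another chromosome, had 61 to 1141 counts in the line libraries and 0 in both control libraries.

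CTCF binds DNA at many boundaries between chromosome loops, and loss of a boundary can let an enhancer reach genes on the other side of it, which are usually near it on the same chromosome. The end of 4q is not one gene family but a stretch of neighbours with unrelated tasks: transcription factors such as HAND2 and IRF2, the prostaglandin-degrading enzyme HPGD, the cadherin FAT1, the RNA sensor TLR3 and the lymphatic growth factor VEGFC. Neighbours on a chromosome can still share a promoter region or a chromatin domain. DNA copy number was not analysed here.

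The promoters of 4 of these genes are shown because their transcripts lay farthest from the control level among those with a mean of at least 5 TPM (a transcript share corrected for length): FBXO8 and CEP44, which face away from each other, HPGD, and FAT1. The windows are from RefSeq (GRCh38.p14), each of 300 bases running from 250 before to 50 after the start of the gene, 5′ to 3′ on the gene's strand, and the windows of 39 of the 41 listed genes were found. They lie at chr4:174283618-174283917 on the minus strand for FBXO8, chr4:174283661-174283960 on the plus strand for CEP44, chr4:174522439-174522738 on the minus strand for HPGD and chr4:186726647-186726946 on the minus strand for FAT1. HPGD and FAT1 each have 2 windows in the table, of which the first listed is shown. Capitals mark 2 motifs searched on both strands: CCGGAA (read as TTCCGG on the other strand), the core bound by ETS factors, and TGACGTCA, the cAMP response element.

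FBXO8: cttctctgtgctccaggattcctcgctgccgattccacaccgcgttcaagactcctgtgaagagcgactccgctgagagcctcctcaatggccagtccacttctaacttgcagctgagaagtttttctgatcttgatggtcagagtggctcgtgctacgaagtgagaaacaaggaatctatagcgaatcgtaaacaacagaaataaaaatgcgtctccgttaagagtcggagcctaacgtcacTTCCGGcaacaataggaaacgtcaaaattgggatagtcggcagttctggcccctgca

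CEP44: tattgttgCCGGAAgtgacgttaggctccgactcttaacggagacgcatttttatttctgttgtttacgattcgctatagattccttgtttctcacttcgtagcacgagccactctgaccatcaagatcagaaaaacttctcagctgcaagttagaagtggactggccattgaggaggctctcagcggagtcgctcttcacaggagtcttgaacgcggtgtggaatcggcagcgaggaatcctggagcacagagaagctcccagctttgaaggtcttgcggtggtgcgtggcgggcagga

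HPGD: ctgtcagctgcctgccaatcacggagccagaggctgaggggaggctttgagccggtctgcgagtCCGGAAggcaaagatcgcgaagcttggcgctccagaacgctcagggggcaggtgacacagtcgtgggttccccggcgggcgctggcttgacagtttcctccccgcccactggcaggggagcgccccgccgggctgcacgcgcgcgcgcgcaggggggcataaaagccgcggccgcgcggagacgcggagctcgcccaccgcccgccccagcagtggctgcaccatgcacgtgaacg

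FAT1: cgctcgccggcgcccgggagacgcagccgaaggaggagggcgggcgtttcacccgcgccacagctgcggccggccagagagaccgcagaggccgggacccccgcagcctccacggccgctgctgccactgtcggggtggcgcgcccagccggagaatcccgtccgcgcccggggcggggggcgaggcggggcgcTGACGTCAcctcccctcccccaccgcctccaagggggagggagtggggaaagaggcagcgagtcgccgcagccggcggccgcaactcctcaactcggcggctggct

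The FBXO8 and CEP44 windows share 257 bases on opposite strands, and by these windows the first bases of both genes are 244 bases apart. In GENCODE FBXO8 begins at 174284264 on the minus strand and CEP44 at 174283677 on the plus strand. There the genes overlap, so the start sites differ between the annotations. The capital letters in the FBXO8 window are the same CCGGAA as in the CEP44 window, read from the other side, so it is 1 motif for both genes. CCGGAA occurs in the windows of 14 of the 39 listed genes, or 35.9%, against 17.6% of 27305 genes with a window. The listed genes are all protein-coding, whereas the 27305 were not limited by gene type. The 1 motif shared by FBXO8 and CEP44 counts for both genes. The 14 are GALNTL6, GALNT7, FBXO8, CEP44, HPGD, GLRA3, CDKN2AIP, RWDD4, TRAPPC11, CENPU, SLC25A4, ANKRD37, CYP4V2 and FRG1, with mean changes over the lines from -0.06 for GALNT7 and -0.03 for TRAPPC11 to 1.01 for GLRA3. TGACGTCA occurs in 3 of the 39 (UFSP2, PDLIM3 and FAT1), against 2.0% of all. The motifs were picked after these windows were seen, and a match describes letters only.

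Levels spanned a wide range. HPGD averaged 660 TPM over the 10 libraries, GALNT7 379 TPM and HMGB2 186 TPM, followed by PDLIM3 (94.6 TPM), FRG1 (80.5 TPM), DCTD (58.5 TPM), CENPU (54.8 TPM) and HAND2 (43.6 TPM). At the low end, 8 genes had too few counts to be tested and are given by their counts over all libraries. Those were TENM3 with 1 count, SCRG1 with 8, SORBS2 with 15, ASB5 with 16, ENPP6 with 21, WDR17 with 34, VEGFC with 49 and LRP2BP with 73. VEGFC, which drives lymphatic vessel growth, had 3 and 2 counts in InsE, 11 and 2 in InsF, 13 and 6 in InsG, 4 and 3 in InsH, and 1 and 4 in control. The remaining 33 genes passed the filter on low counts, and all counts and medians below refer to them.

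Compared with control, the 33 genes had a small shift upward in every line, with a few genes well above and 2 well below. The median log2 change was 0.22 in InsE, 0.23 in InsF, 0.26 in InsG, 0.22 in InsH, which is 1.17-fold, 1.18-fold, 1.19-fold and 1.16-fold, against 0.01 over all 15554 genes tested. Between the libraries of a line this median had an SD of 0.052, 0.054, 0.071 and 0.086 in the same order (n = 2 each). Of the 33 genes, 25 lay above control for InsE, 26 for InsF, 30 for InsG and 27 for InsH, against 51.1%, 50.8%, 51.0% and 51.2% of all genes. Since the 4 comparisons share the control libraries, their similarity is not independent.

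**Figure D1:**
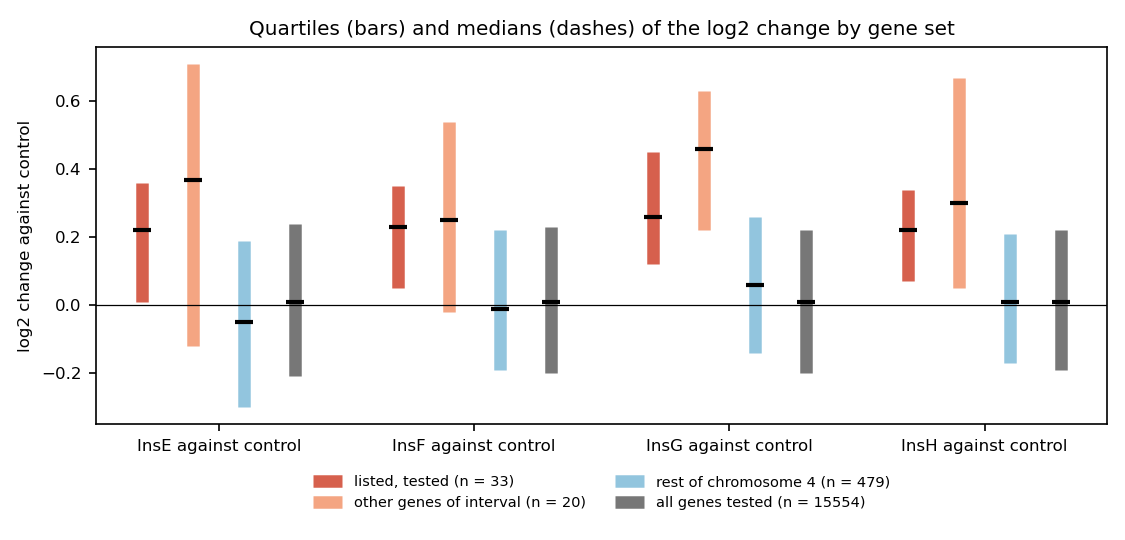
Log2 change against control by line for the 33 tested listed genes, the other 20 tested genes of the same stretch, the 479 tested genes on the rest of chromosome 4 and all 15554 genes tested. Bars span the lower to the upper quartile and dashes are medians; the listed genes have medians of 0.22 to 0.26, against 0.01 for all genes.

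Within each line, the replicate 1 pair (line minus control) and the replicate 2 pair share no library. The median change of the 33 genes was 0.26 and 0.16 in the replicate 1 and 2 pairs of InsE, 0.21 and 0.15 in those of InsF, 0.29 and 0.21 in those of InsG, and 0.27 and 0.15 in those of InsH. The replicate 1 pairs, which had the deeper libraries, gave the higher median in every line, and the part of depth in this was not tested. The 2 pairs gave a gene the same sign for 28 of the 33 genes in InsE, InsF and InsG and for 26 in InsH, against 72.4% to 74.5% of all genes. Pearson's r between the pairs across the 33 genes was 0.37 in InsE, 0.26 in InsF, 0.40 in InsG, 0.20 in InsH, lower than the 0.49, 0.56, 0.51 and 0.48 across all genes, and Spearman's rho across the 33 was 0.51, 0.66, 0.63 and 0.48. These describe genes of the same libraries, which are not independent replicates.

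A gene counts as called where edgeR's adjusted p, taken over all genes, was under 0.05. In InsE 11 genes were called higher and 3 lower, where 10.8% of all genes were higher and 12.4% lower (23.2% in either direction). In InsF 7 were higher (10.9% of all genes) and 2 lower (11.3%; 22.3% either way). In InsG 10 were higher (9.86%) and 2 lower (10.5%; 20.3% either way), and in InsH 9 higher (8.95%) and 2 lower (9.46%; 18.4% either way). Both libraries of a line lay above both control libraries for 20 genes in InsE (32.8% of all genes), 20 in InsF (32.9%), 23 in InsG (32.6%), 22 in InsH (31.7%). They lay below both for 4 genes in InsE (32.4%), 5 in InsF (32.4%), 3 in InsG (32.0%), 3 in InsH (31.4%). Since these contrasts entered the choice of genes, nothing is read from these counts. They depend on single libraries: fewer listed genes were called in each line without either control library or the line's own replicate 1. Calls over all genes fell in these fits too, each of which left 1 library in a group. Without control replicate 1 the median change of the listed genes was 0.19 in InsE, 0.22 in InsF, 0.26 in InsG, 0.22 in InsH. Without control replicate 2 it was 0.20, 0.20, 0.25 and 0.22. Without the line's own replicate 1 it was 0.16 in InsE, 0.15 in InsF, 0.18 in InsG, 0.13 in InsH. Of the 46 calls summed over the lines, 17 were made in every fit that left out 1 library: CEP44 in all 4 lines, FBXO8 in InsF, InsG and InsH, FAT1 in InsE, InsG and InsH, HPGD and GLRA3 in InsE and InsG, and HMGB2 in InsE, WWC2 in InsF and CYP4V2 in InsG.

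FBXO8, CEP44, HPGD and WWC2 were called higher in all 4 lines (3.01% of all genes were), and STOX2 and FAT1 lower in all 4 (4.23%). A further 13 genes were called in no line, as were 61.1% of all genes. Without regard to size, 23 of the 33 lay above control in all 4 lines (29% of all genes), STOX2 and FAT1 lay below in all 4 (27.7%), and 8 had mixed signs (43.3%).

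**Figure D2:**
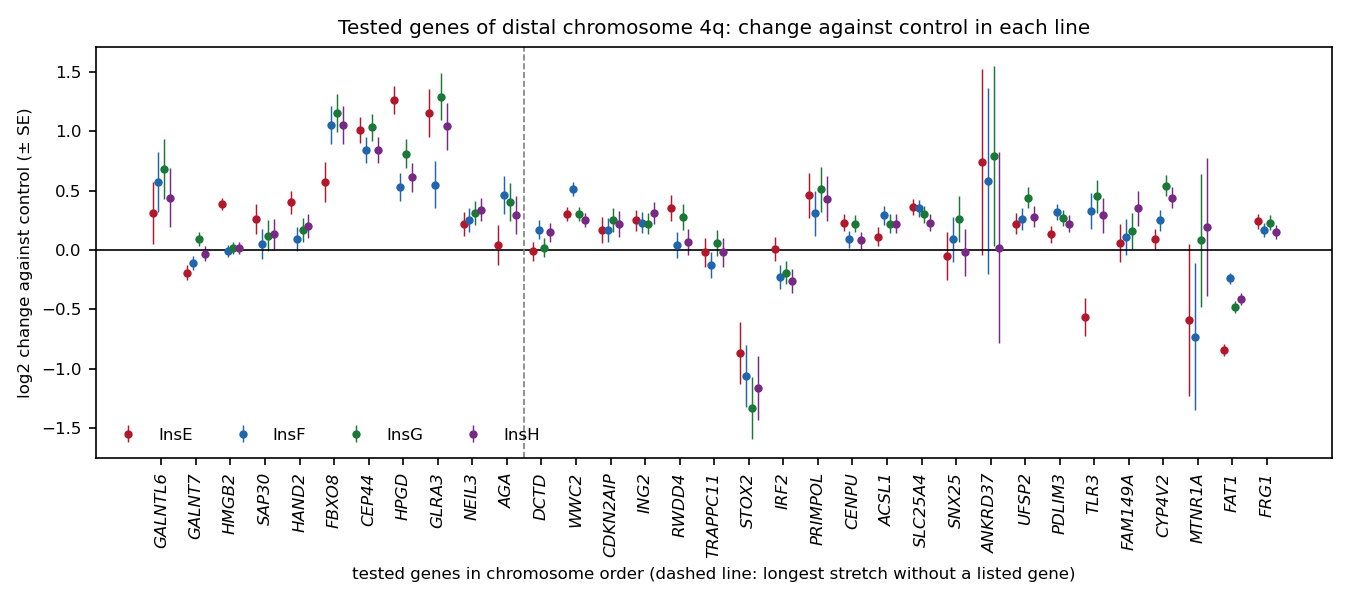
Log2 change against control with its SE for each of the 33 tested genes in chromosome order, by line. FBXO8, CEP44, HPGD and GLRA3 stand next to each other at 0.53 to 1.29, most others lie between 0 and 0.5, and STOX2 and FAT1 lie below 0 in every line.

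The 4 neighbours FBXO8, CEP44, HPGD and GLRA3 had the highest changes in the mean of the lines. FBXO8, an F-box protein, had 13.1 and 10.4 CPM (counts scaled to the library total, with TMM) in InsE, 17.6 and 15.9 in InsF, 19.3 and 16.2 in InsG, 18.7 and 14.2 in InsH, against 7.61 and 8.67 in control. Every line library lay above both controls, by a log2 change of 0.57 ± 0.17 (SE) in InsE, 1.05 ± 0.16 in InsF, 1.15 ± 0.16 in InsG, 1.05 ± 0.16 in InsH. CEP44, a centriole protein that shares the start region with FBXO8, had 18.0 and 14.6 CPM in InsE, 15.5 and 13.9 in InsF, 17 and 16.6 in InsG, 15.2 and 14.2 in InsH, against 8.18 and 8.31 in control. Its change was even across lines, 1.01 ± 0.11 in InsE, 0.84 ± 0.11 in InsF, 1.03 ± 0.11 in InsG, 0.84 ± 0.11 in InsH. In GENCODE the FBXO8 and CEP44 genes overlap on opposite strands, and the strand setting of the counting is not given in the sources used here, so reads in the overlap cannot be told apart.

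HPGD, the enzyme that inactivates prostaglandins, was the most abundant of the listed transcripts. It had 1170 and 986 CPM in InsE, 697 and 597 in InsF, 854 and 717 in InsG, 745 and 624 in InsH, against 444 and 455 in control. No line library overlapped control, and the changes were 1.26, 0.53, 0.81 and 0.61, each ± 0.12. GLRA3, a glycine receptor subunit, was 3.30 and 3.07 CPM in InsE, 1.97 and 2.29 in InsF, 3.32 and 3.85 in InsG, 3.24 and 2.65 in InsH, and 1.44 in both controls. It lay above control in all line libraries, with calls in InsE, InsG and InsH, at an average of 0.473 TPM. WWC2, a regulator of Hippo signalling, had the smallest change of the genes called higher in every line, with 59.1 and 59.6 CPM in InsE, 70.6 and 66.1 in InsF, 59.7 and 58.7 in InsG, 58.9 and 55.5 in InsH, against 48.6 and 47.7 in control.

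**Figure D3:**
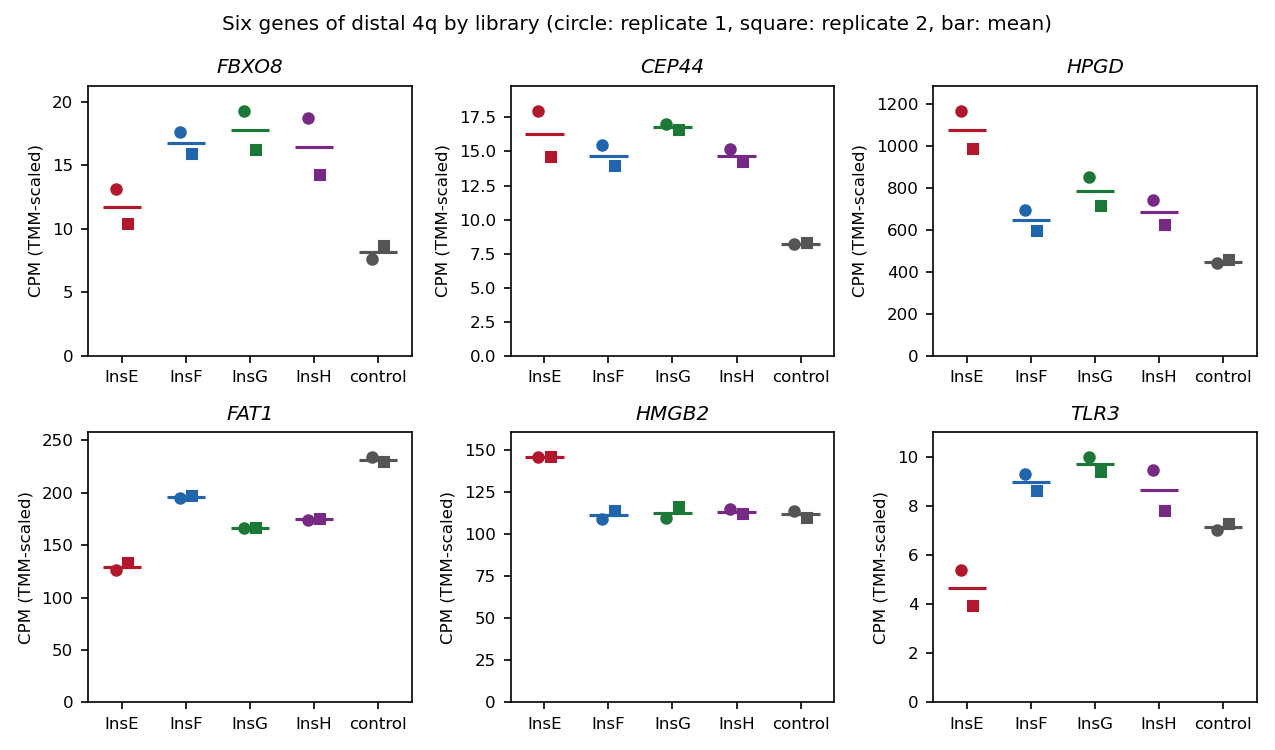
CPM of FBXO8, CEP44, HPGD, FAT1, HMGB2 and TLR3 in each library of InsE, InsF, InsG, InsH and control, with axes from 0, circles for replicate 1, squares for replicate 2 and bars for means of 2 libraries. HPGD is highest in InsE (986 and 1170 CPM) and FAT1 is lowest there (126 and 133 CPM).

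On the other side, FAT1, an atypical cadherin at the cell surface, had 126 and 133 CPM in InsE, 195 and 197 in InsF, 166 in both InsG libraries, 174 and 175 in InsH, against 234 and 229 in control. All line libraries were below control, by 0.84 ± 0.05 in InsE, 0.24 ± 0.05 in InsF, 0.48 ± 0.05 in InsG, 0.41 ± 0.05 in InsH. On the TPM scale the gap was smaller, with 33.4 and 37.4 TPM in InsE, 42.9 and 37.3 in InsF, 34.2 and 32.5 in InsG, 35.0 and 36.6 in InsH, against 43.9 and 45.6 in control. InsE was lowest in CPM, but InsG was lowest in TPM. With limma on log2(TPM + 1) FAT1 was called in InsG but not in InsE, InsF or InsH (adjusted p = 0.0564, 0.327 and 0.0771). Without control replicate 1 its edgeR call in InsF was lost (adjusted p = 0.0727).

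STOX2, a winged-helix protein, was low, with 1.79 and 2.43 CPM in InsE, 1.55 and 2.09 in InsF, 1.73 and 1.07 in InsG, 1.68 and 1.66 in InsH, against 3.59 and 3.90 in control. In CPM no line library reached control. In TPM the groups touched or overlapped, since InsE replicate 2 and InsH replicate 2 had 0.750 TPM and InsF replicate 2 had 1.02 TPM, against 0.750 and 0.770 in control. Its call was lost in every line with limma on log2(TPM + 1), with adjusted p from 0.474 to 0.907, and without control replicate 2, with edgeR adjusted p of 0.179 in InsE, 0.101 in InsF, 0.0546 in InsG, 0.0913 in InsH. Without control replicate 1 it was lost in InsE (0.133), InsF (0.0792) and InsH (0.0731).

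Among the other nuclear proteins, HAND2, a transcription factor of the developing heart and gut, had 54.3 and 56.4 CPM in InsE, 40.6 and 48.6 in InsF, 44.1 and 50.5 in InsG, 46.5 and 50.1 in InsH, against 41.1 and 42.5 in control. Of the 4 lines, InsF overlapped control, and HAND2 was called higher in InsE, by 0.40 ± 0.10. That call was lost without either control library or either InsE library, with edgeR adjusted p from 0.0554 to 0.119. IRF2, an interferon regulatory factor, had 13.9 and 13.6 CPM in InsE, 10.9 and 12.5 in InsF, 12.2 and 11.6 in InsG, 11.6 and 11.3 in InsH, against 12.9 and 14.6 in control. It lay below both controls in InsF, InsG and InsH and was called in none. ING2, a reader of histone methylation, changed by 0.22 to 0.31 and was called in InsH. SAP30, a subunit of a histone deacetylase complex, changed by 0.05 to 0.26 and CDKN2AIP by 0.17 to 0.25, without a call.

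Among the DNA repair and chromosome genes, NEIL3, a DNA glycosylase, changed by 0.22 to 0.34 and was called in InsH. PRIMPOL, a primase that restarts stalled replication, changed by 0.31 to 0.51 without a call, and its gene overlaps CENPU on the other strand. CENPU, a centromere protein, had 61.8 and 57.1 CPM in InsE, 55.7 and 52.2 in InsF, 60.8 and 57.1 in InsG, 55.6 and 51.4 in InsH, against 51.0 and 50.7 in control. Every line library lay above control, with a call in InsE. A list of 19 proliferation genes elsewhere in the genome, tested with the same fit, had median changes of -0.02 in InsE, -0.07 in InsF, -0.02 in InsG, -0.05 in InsH. Of the 19, 2 were called higher and 4 lower in InsE (10.8% and 12.4% of all genes were), 0 and 5 in InsF (10.9% and 11.3%). In InsG it was 1 and 3 (9.86% and 10.5%), and in InsH 0 and 3 (8.95% and 9.46%). In the mean of the lines 1 was called higher (13.1% of all genes were) and 5 lower (14.5%). The largest of these called changes were -0.57 ± 0.04 for MKI67, the proliferation antigen, with -0.40 to -0.65 in the single lines, -0.34 ± 0.04 for RRM2, -0.18 ± 0.06 for CENPF, and -0.17 ± 0.04 for both MCM2 and PCNA. The 1 called higher was CCNB1, at 0.15 ± 0.04.

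Of the other metabolic genes, SLC25A4, which carries ADP and ATP across the inner mitochondrial membrane, changed by 0.36 ± 0.07 in InsE, 0.35 ± 0.07 in InsF, 0.30 ± 0.07 in InsG, 0.23 ± 0.07 in InsH, with calls in InsE, InsF and InsG. ACSL1, which activates fatty acids, changed by 0.11 to 0.29 and was called in InsF. DCTD, a deaminase of the dTMP supply, had 50.4 and 47.8 CPM in InsE, 56.6 and 54.8 in InsF, 53.6 and 46.2 in InsG, 54.9 and 54.8 in InsH, against 50.9 and 47.9 in control. InsE and InsG overlapped control for DCTD, and no line was called. AGA, a lysosomal enzyme of glycoprotein breakdown, changed by 0.04 in InsE and 0.29 to 0.46 in the other lines without a call.

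GALNT7, an enzyme in the making of mucin-type sugar chains, was the second most abundant, with 806 and 759 CPM in InsE, 857 and 801 in InsF, 994 and 913 in InsG, 906 and 841 in InsH, against 902 and 886 in control. It lay below both controls in InsE and InsF, above both in InsG, and spread around them in InsH. GALNTL6, of the same family, changed by 0.31 to 0.68 at an average of 0.998 TPM, without a call. UFSP2, a protease of the UFM1 modifier, changed by 0.22 to 0.44 and was called in InsG. TRAPPC11 and SNX25, which act in membrane trafficking, changed by -0.13 to 0.06 and by -0.05 to 0.26, also without a call.

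PDLIM3, a PDZ and LIM protein of the actin cytoskeleton, had 93.1 and 94.6 CPM in InsE, 107 and 106 in InsF, 107 and 99.7 in InsG, 105 and 94.0 in InsH, against 87.3 and 84.1 in control. All line libraries lay above control, with calls in InsF, InsG and InsH. FRG1, near the telomere, had 48.1 and 46.1 CPM in InsE, 45.6 and 44.5 in InsF, 47.2 and 46.4 in InsG, 45.0 and 44.2 in InsH, against 40.1 and 40.0 in control. It too lay above control in every library, with calls in InsE and InsG, but FRG1 has near-identical copies elsewhere in the genome and its count is uncertain to the extent that reads were split. RWDD4 was called in InsE and FAM149A in no line. ANKRD37, a target of hypoxia signalling, had 1.06 and 0.741 CPM in InsE, 1.07 and 0.538 in InsF, 1.24 and 0.537 in InsG, 0.733 and 0.331 in InsH, against 0.134 and 1.08 in control. MTNR1A, a melatonin receptor, had 0.128 and 0.529 CPM in InsE, 0.242 and 0.202 in InsF, 0.420 and 0.358 in InsG, 0.388 and 0.497 in InsH, against 0.436 and 0.308 in control. The line and control libraries overlapped for both.

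The derivative lines were also compared with each other, a difference that leaves out the control mean. The control libraries still entered the same fit, and so the spread behind these p-values. Among the 4 lines, 6 of the 33 genes differed, where 13.2% of all genes did (edgeR adjusted p under 0.05): FAT1 (adjusted p = 0.000301), HMGB2 (0.00253), TLR3 (0.00801), HPGD (0.00972), CYP4V2 (0.0257) and GALNT7 (0.0488). The difference was mostly between InsE and the other lines. Between InsE and InsF 5 of the 33 were called (18.6% of all genes), between InsE and InsG 7 (17.3%) and between InsE and InsH 5 (14.5%). Between InsF and InsG (0.174% of all genes), InsF and InsH (0.0707%) and InsG and InsH (0%) none was called.

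HMGB2, a chromatin protein with 2 HMG boxes, had 146 CPM in both InsE libraries, against 109 and 114 in InsF, 110 and 116 in InsG, 115 and 112 in InsH. Control, with 114 and 110 CPM, lay within the range of InsF, InsG and InsH. InsE exceeded the mean of InsF, InsG and InsH by 0.38 ± 0.04 on the log2 scale (edgeR adjusted p = 0.000293), and both of its libraries were above all 6 of theirs. On the TPM scale InsE had 227 and 207 TPM, against 172 to 192 in the other lines, and limma on log2(TPM + 1) did not call the difference among lines (adjusted p = 0.134).

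TLR3, the receptor for double-stranded RNA, had 5.38 and 3.91 CPM in InsE, against 9.32 and 8.61 in InsF, 10.0 and 9.40 in InsG, 9.49 and 7.79 in InsH, while control had 7.01 and 7.29. InsE was below every other library and the other 3 lines were above control. The log2 difference of InsE from the mean of the other lines was -0.92 ± 0.13 (edgeR adjusted p = 0.00111), and among the lines limma on log2(TPM + 1) gave an adjusted p of 0.0590. IRF9 and IRF1, interferon factors on other chromosomes, also differed among the lines (edgeR adjusted p = 0.00168 and 0.000104), with changes against control of -0.82 in InsE for IRF9 and 0.19 in InsE for IRF1, against -0.08 to 0.21 and 1.04 to 1.23 in the other 3 lines. IRF3 and IRF7, of the same family, were not called among the lines (0.706 and 0.815).

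HPGD was higher in InsE than in the mean of the other lines by 0.61 ± 0.09 (edgeR adjusted p = 0.00168), with both InsE libraries above the other 6. Its difference among the lines was lost without InsE replicate 1 (adjusted p = 0.0908) and with limma on log2(TPM + 1) (0.131). FAT1 was lower in InsE than in the mean of the other lines, with a log2 difference of -0.46 ± 0.04 (edgeR adjusted p = 6e-05), and the difference among lines was not called with limma on log2(TPM + 1) (0.342). CYP4V2, a fatty acid hydroxylase of the cytochrome P450 family, had 38.3 and 34.5 CPM in InsE, 43.2 and 38.7 in InsF, 52.2 and 47.9 in InsG, 49.0 and 44.2 in InsH, with 35.0 and 33.9 in control. Both InsE libraries were below the other 6 for CYP4V2, and the log2 difference from the mean of the other lines was -0.32 ± 0.07 (edgeR adjusted p = 0.0122).

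GALNT7 and CYP4V2 rested on single libraries in the test among lines. GALNT7 was lost without any one of 8 libraries, all but InsG replicate 2 and InsH replicate 2 (edgeR adjusted p from 0.0594 to 0.213). CYP4V2 was lost without either InsE library (0.0712 and 0.112), InsG replicate 1 (0.0981) or either control library (0.0646 and 0.0720), and was the one gene of the 6 still called among lines with limma on log2(TPM + 1) (0.0273). HMGB2, TLR3 and FAT1 kept their edgeR call among lines without any single library.

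In the comparison of InsE with the mean of the other lines, 8 of the 33 genes differed (24.2% of all genes), HMGB2, HAND2 and HPGD being higher in InsE and GALNT7, FBXO8, TLR3, CYP4V2 and FAT1 lower. The log2 difference was 0.25 ± 0.08 for HAND2 (edgeR adjusted p = 0.0464), -0.51 ± 0.13 for FBXO8 (0.0200) and -0.18 ± 0.05 for GALNT7 (0.0328). CEP44, the neighbour of FBXO8, differed by 0.11 ± 0.09 and was not called (adjusted p = 0.422). Fewer of the 33 were called without InsE replicate 2, a fit that left 1 library in InsE. Calls over all genes in that fit are not given here, so nothing is read from the smaller number.

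Position within the stretch was described in 2 blocks, divided at the longest stretch without a listed gene, 4.7 Mb between AGA and TENM3. The 11 tested genes before it had median changes of 0.39 in InsE, 0.46 in InsF, 0.40 in InsG, 0.34 in InsH, and the 22 beyond it 0.12, 0.17, 0.24 and 0.20. Spearman's rho between position and change over the 33 genes was -0.45 in InsE, -0.19 in InsF, -0.12 in InsG, -0.19 in InsH, and between mean TPM and change 0.12, -0.17, -0.27 and -0.19. These are descriptions across genes of the same libraries.

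Values on either side of the start of the list at GALNTL6 were as follows. The nearest named genes outside it, NEK1, CLCN3 and C4orf27, 2.08 to 2.42 Mb before GALNTL6, each changed by 0.43 in the mean of the lines, MFAP3L by 0.39 ± 0.27 and AADAT by -0.20 ± 0.36. Just inside, GALNTL6 changed by 0.50 ± 0.20, GALNT7 by -0.06 ± 0.05, HMGB2 by 0.11 ± 0.04, SAP30 by 0.14 ± 0.10 and HAND2 by 0.22 ± 0.08. In windows of 10 Mb counted from GALNTL6, the median change in the mean of the lines was 0.53 for the 18 tested genes of the first window, 0.17 for the 35 of the second and 0.11 for the 22 genes just before GALNTL6. The next window back had 27 genes and a median of -0.16, and the windows farther back lay between -0.04 and 0.13.

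**Figure D4:**
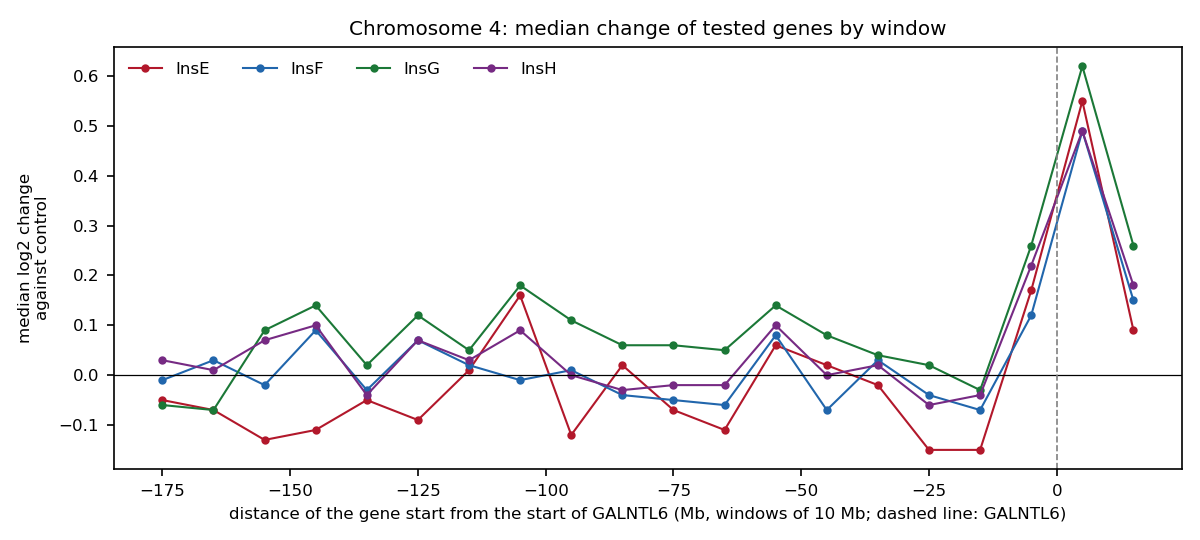
Median log2 change against control of all tested genes of chromosome 4 in windows of 10 Mb, by distance of the gene start from GALNTL6, by line. The first window from GALNTL6 stands highest in each line, at 0.49 to 0.62, and the last at 0.09 to 0.26.

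A further 20 tested genes of the same stretch are not on the list. Their median change was 0.37 in InsE, 0.25 in InsF, 0.46 in InsG, 0.30 in InsH, against -0.05, -0.01, 0.06 and 0.01 over the 479 tested genes on the rest of chromosome 4. The best expressed was SPCS3, a signal peptidase subunit, with 183 and 146 CPM in InsE, 170 and 145 in InsF, 204 and 160 in InsG, 177 and 149 in InsH, against 126 and 121 in control. FRG2 had 46.8 to 61.9 CPM in the line libraries against 34.7 and 36.8 in control, and lay above control in every line library. CFAP97, CCDC110 and C4orf47 changed by 0.17, 0.07 and -0.08 in the mean of the lines. HAND2-AS1, which lies next to HAND2 on the other strand and was named after its values were seen, had 11.8 to 16.0 CPM in the line libraries against 8.68 and 8.72 in control, and the strand setting limits it in the same way as FBXO8.

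The size of the change was less spread across the 33 genes than across all genes tested. Evenness was part of the choice of the list, so nothing is read from this smaller spread. The SD of the change across the 33 was 0.47 in InsE, 0.40 in InsF, 0.47 in InsG, 0.39 in InsH. It was 0.70, 0.71, 0.69 and 0.71 across all 15554 genes and 0.69, 0.64, 0.60 and 0.58 on the rest of chromosome 4. Across the other 20 tested genes of the stretch, which are not on the list, it was 0.62, 0.56, 0.61 and 0.59. Across the 26 with a mean of at least 5 TPM it was 0.38, 0.30, 0.34 and 0.30, against 0.43, 0.41, 0.41 and 0.38 across all 10437 genes at that level. The 26 had medians of 0.23, 0.20, 0.24 and 0.22 and the 16 of the 33 that overlap no gene on the other strand had 0.15, 0.20, 0.26 and 0.22.

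Paralogues of the listed genes on other chromosomes served for comparison. The 39 tested had median changes of 0.01 in InsE, 0.03 in InsF, 0.00 in InsG, 0.06 in InsH, and in the mean of the lines 5 were called higher and 4 lower (27.6% of all genes were called). Their largest called changes were those of FAT3, a relative of FAT1, at 1.01 ± 0.15 (edgeR adjusted p = 0.00126), which was -0.24 in InsE and 1.39 to 1.49 in the other lines, and IRF1 at 0.90 ± 0.06 (1.1e-05), followed by ACSL3 at -0.36 ± 0.06 (0.00154) and ACSL4 at -0.35 ± 0.09 (0.0162). Of 14 tested partners of VEGFC, HPGD and TLR3, 3 were called higher and 2 lower in the mean of the lines. Of all genes 13.1% were called higher and 14.5% lower. PTGS1, a prostaglandin synthase, was higher by 1.15 ± 0.13 (edgeR adjusted p = 0.000191), from 1.56 TPM in control. SLCO2A1, which takes prostaglandins into the cell for HPGD to degrade, was lower, at -1.48 ± 0.29 (0.00449), with at most 0.56 TPM in any library. TICAM1, the adaptor of TLR3, was lower at -0.42 ± 0.11 (0.0189), with 0.05 in InsE and -0.53 to -0.63 in the other lines. CCBE1, which helps to activate VEGFC, was higher at 2.05 ± 0.59 (0.0281) from at most 0.72 TPM in any library.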

How the data were processed

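RNA was sequenced in 10 libraries, 2 per group. The submitters' processing notes name the build hg38, the aligner STAR (2.5.3), the counter RSEM (1.3.2) and DESeq2 (1.38.3). Annotation release and strand setting are not stated there. The authors deposited RSEM expected counts and TPM per gene and library. The 10 value columns of a further table matched no label and were not used. Gene positions are from GENCODE, to which 58216 of 58381 rows matched by identifier.

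Rounded expected counts went into edgeR's robust quasi-likelihood test (edgeR 4.0.16, R 4.3.3) with TMM scaling, and its expression filter with a minimum count of 10 kept 15554 genes. All 10 libraries entered 1 fit (5 residual degrees of freedom). Two-sided p-values were adjusted after Benjamini-Hochberg over all 15554 genes, and those under 0.05 were called. DESeq2 1.42.0, limma 3.58.1 on log2 TPM, library sizes alone, no filter, a replicate term and leaving out each library were alternatives. The code was tested on simulated data.

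The listed genes and the gene lists were chosen with earlier results of these data known. Values per library are given for the 8 most abundant genes and the 3 farthest above and below the median change in each line, for genes that differed among lines, and for WWC2, VEGFC and SPCS3. Of each further list, up to 4 called genes with the largest change were named, plus a tie and CCNB1. One result that this rule selects is not reported here.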

Additional observations from a re-analysis of the deposited data

Results flagged for a closer look

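Of the 33 tested genes of distal 4q, 6 are given again because the 4 derivative lines differed in them by a test of that difference (edgeR, adjusted over all genes). For FAT1 the adjusted p was 0.000301, with InsE lowest in CPM and InsG lowest in TPM. For HMGB2 it was 0.00253, with InsE highest. For TLR3 it was 0.00801, with InsE lowest. For HPGD it was 0.00972, with InsE highest. For CYP4V2 it was 0.0257 and for GALNT7 it was 0.0488, with InsE lowest and InsG highest in both. Among all genes 13.2% differed, so 6 of 33 is near the background.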

How the results depend on the processing

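No median changed sign under any alternative, and all alternatives gave medians of 0.13 to 0.33. The numbers of listed genes called did move. With library sizes alone InsF had 14 called (3546 of all genes) and InsE a median of 0.28 (0.06 over all genes). DESeq2 called 9 in InsE (2479 of all genes) and 5 in InsH (1856). With limma on log2(TPM + 1) and log2(TPM + 0.1), 5 were called in InsE (1791 and 1804 of all genes) and 1 among the lines. The same 2 settings called 1 unlisted gene in InsE and 3 in InsG. They called 6 and 7 proliferation genes and 18 and 21 paralogues, each summed over 4 lines (18 and 34 with edgeR). The InsG median was 0.33 with log2(TPM + 0.1). Without the filter 6 unlisted genes were called in InsF (4080 of all 29039 genes). Using the listed genes that overlap no gene on the other strand, chosen after seeing the data, the InsE median was 0.15.

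With the replicate block 17 listed genes were called in InsF (5886 of all genes), 23 in InsG (5769), 17 in InsH (5317) and 12 among the lines. It called 5 unlisted genes in InsH, 39 proliferation genes and 64 paralogues. Same-numbered libraries deviated together with correlations of 0 to 0.46 over 10 pairs of groups, and the labels do not say that numbers pair libraries.

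Leaving out 1 library at a time, 5 to 14 listed genes were called in InsE, 3 to 9 in InsF, 6 to 13 in InsG, 3 to 9 in InsH, 3 to 6 among the lines and 4 to 8 between InsE and the other lines. Unlisted genes called were 2 to 4, 2 to 4, 3 to 7 and 1 to 3 in InsE, InsF, InsG and InsH. Medians were 0.16 to 0.25, 0.15 to 0.24, 0.18 to 0.31 and 0.13 to 0.26. Proliferation genes called were 6 to 17 and paralogues 11 to 29. In each line, calls over all genes fell as well without either control library or either library of that line. The cause of the changes in calls and medians was not tested, beyond fewer libraries entering the fit. Where a group was left with 1 library, it was assumed to vary like the others. Depth limits the 8 untested genes, whose totals were 1 to 73 counts.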
